A study of Mus musculus with 7 samples.

Results

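The genes described here are 10 members of the cadherin switch and of the transcription programme of epithelial-mesenchymal transition (EMT), taken by name from the deposited table of 30590 rows: the cadherins Cdh1, Cdh2, Cdh3, Cdh6 and Cdh11, the intermediate filament gene Vim, and the transcriptional repressors Snai1, Snai2, Zeb1 and Zeb2. All 10 were in the table and all 10 were tested, and Twist1 and Twist2, other regulators of the same programme, are given beside them. RNA was read in 7 libraries of the mouse embryonic stem cell line Bry-GFP, so named in the labels. The day 0 group (n = 2) was stem cells grown on mouse embryonic feeder fibroblasts with fetal serum and the cytokine LIF. The day 2 group (n = 2) had been taken off feeders and serum and held in suspension for 48 h, when embryoid bodies form. The day 4 group (n = 2) had then had 48 h of Noggin (150 ng/mL), Wnt3a (25 ng/mL) and Activin A (9 ng/mL), given to induce primitive streak, and day 6 (n = 1) a further 48 h of basic FGF (10 ng/mL). All groups come from the same reporter line, and the sources used here do not say whether feeders were removed before the day 0 RNA was taken. The labels call the replicates biological without naming separate cultures, so p-values measure the spread between these libraries, which may be technical.

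Classical cadherins are calcium-dependent adhesion proteins that join cells to neighbours carrying the same cadherin and hold the actin skeleton through catenins. E-cadherin (Cdh1) is the cadherin of stem cell colonies, epiblast and epithelia, and N-cadherin (Cdh2) that of neural plate and mesoderm; the exchange of the first for the second is called the cadherin switch. In the embryo it takes place in cells that leave the epiblast through the primitive streak and in cells that form the neural plate. The Snail (Snai1, Snai2) and Zeb (Zeb1, Zeb2) zinc finger proteins bind E-box sequences and repress Cdh1, while vimentin (Vim) is a filament protein of mesenchymal cells and of neural progenitors.

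The Snail and Zeb proteins are known for E-boxes of the form CACCTG, which reads CAGGTG on the other strand. Promoter windows from RefSeq (GRCm38.p6), 250 bases up to the base before a start, matched 4 of the 10 members (Cdh6, Vim, Snai1 and Zeb2) and both Twist genes, with 9 windows in all. The motif on either strand was in 17.2% of the 32851 windows of this length in the table, and in 1 of these 9, that of Snai1, where its first base lies 126 bases before the start. The windows of Snai1 (chr2:167537945-167538194, plus strand) and Cdh6 (chr15:13173676-13173925, minus strand) are shown, as the member that fell to the limit of detection on day 2 and the member that rose most on that day, with the E-box in capitals.
Snai1: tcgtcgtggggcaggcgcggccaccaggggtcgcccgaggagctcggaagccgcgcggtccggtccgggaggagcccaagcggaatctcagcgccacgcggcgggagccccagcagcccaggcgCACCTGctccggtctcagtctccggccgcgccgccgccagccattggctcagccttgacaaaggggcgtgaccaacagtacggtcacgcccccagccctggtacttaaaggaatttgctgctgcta
Cdh6: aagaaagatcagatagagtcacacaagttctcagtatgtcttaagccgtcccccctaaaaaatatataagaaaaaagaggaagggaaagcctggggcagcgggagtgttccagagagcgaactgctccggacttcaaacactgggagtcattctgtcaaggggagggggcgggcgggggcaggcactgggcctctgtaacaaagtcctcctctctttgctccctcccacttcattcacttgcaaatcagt
A match is a description of the letters and not a binding site, and no match says only that these letters are not in the window.

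Each level below is the log2 of scaled reads plus 1, errors after ± are SDs (n = 2 libraries), and day 6 is a single library throughout, whose comparisons assume that it varies like the other days. Read numbers were estimated from the steps between the lowest normalized values, at roughly 2820000 to 5870000 per library. On the same steps the level that 3 reads give was between 1.45 and 2.30. All numbers of reads given below rest on these steps. Library medians over well-measured genes lay within 0.01 of each other, which the quantile normalization of the deposited values brings about. All 8 stem cell and epiblast markers (among them Pou5f1, Nanog and Sox2) were above the level of 3 reads in every library. The 15 feeder fibroblast markers (collagens, Lox, Tagln, Thy1 and others) summed to 21630 and 24785 scaled reads on day 0, 1946 and 1355 by day 2, 609 and 546 by day 4 and 645 by day 6. On day 2 against day 0, 13 of the 15 fell and 0 rose, with a median log2 change of -3.61 against 0.05 over all 21813 genes tested. Of the 15, 7 fell and 0 rose from day 2 to day 4, none passed from day 4 to day 6 (limma; lowest adjusted p = 0.053, for Lox), and 7 fell and 0 rose between day 2 and day 6. Xist, the RNA of an inactive X chromosome, moved with them, from 9.33 and 9.63 on day 0 to 6.75 and 7.40 on day 2. In bulk RNA, fewer cells of a type and less RNA per cell cannot be told apart.

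Over the whole course each of the 10 members changed on some day (limma's moderated F test, adjusted p between 0.000561 for Vim and 0.0223 for Snai2), where 28.6% of all genes did. That count rests on single libraries: it was 0 without day 0 replicate 2 or day 4 replicate 1 (limma; lowest adjusted p = 0.0539 and 0.0534), 1 without day 0 replicate 1 (Vim), and 7 or 8 without each of the others. Twist2 passed as well (adjusted p = 0.00658) and Twist1 did not (adjusted p = 0.0514). The share over all genes includes many low genes. When only the 11800 genes with a mean of at least 10 scaled reads were fitted, 6425 passed the F test, and so did all 9 members among them. From day 0 to day 2, 2 members rose (Cdh2 and Cdh6) and 5 fell (Cdh11, Vim, Snai1, Snai2 and Zeb1), where 12.0% of all genes were called (5.76% higher and 6.20% lower). The median log2 change of the members was -0.93 in this step, then 0.28 to day 4 and 0.94 to day 6, and 0.80 from day 2 to day 6, against 0.05 over all genes in the first and 0.00 in the others. From day 2 to day 4 only Vim passed, a rise, where 3.59% of all genes were called (1.45% higher and 2.13% lower). From day 4 to day 6, 1 rose (Cdh11) and 2 fell (Cdh1 and Cdh3), where 4.46% of all genes were called (1.27% higher and 3.18% lower). Between day 2 and day 6, neither on feeders, 5 rose (Cdh2, Cdh11, Vim, Zeb1 and Zeb2) and 2 fell (Cdh1 and Cdh3), where 15.9% of all genes were called (7.47% higher and 8.41% lower). These comparisons share libraries and are not independent of each other. When only the days compared were fitted, which leaves day 6 without a spread of its own, 0 members passed in either day 6 comparison (limma; lowest adjusted p = 0.255 against day 4 and 0.165 against day 2).

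**Figure D1:**
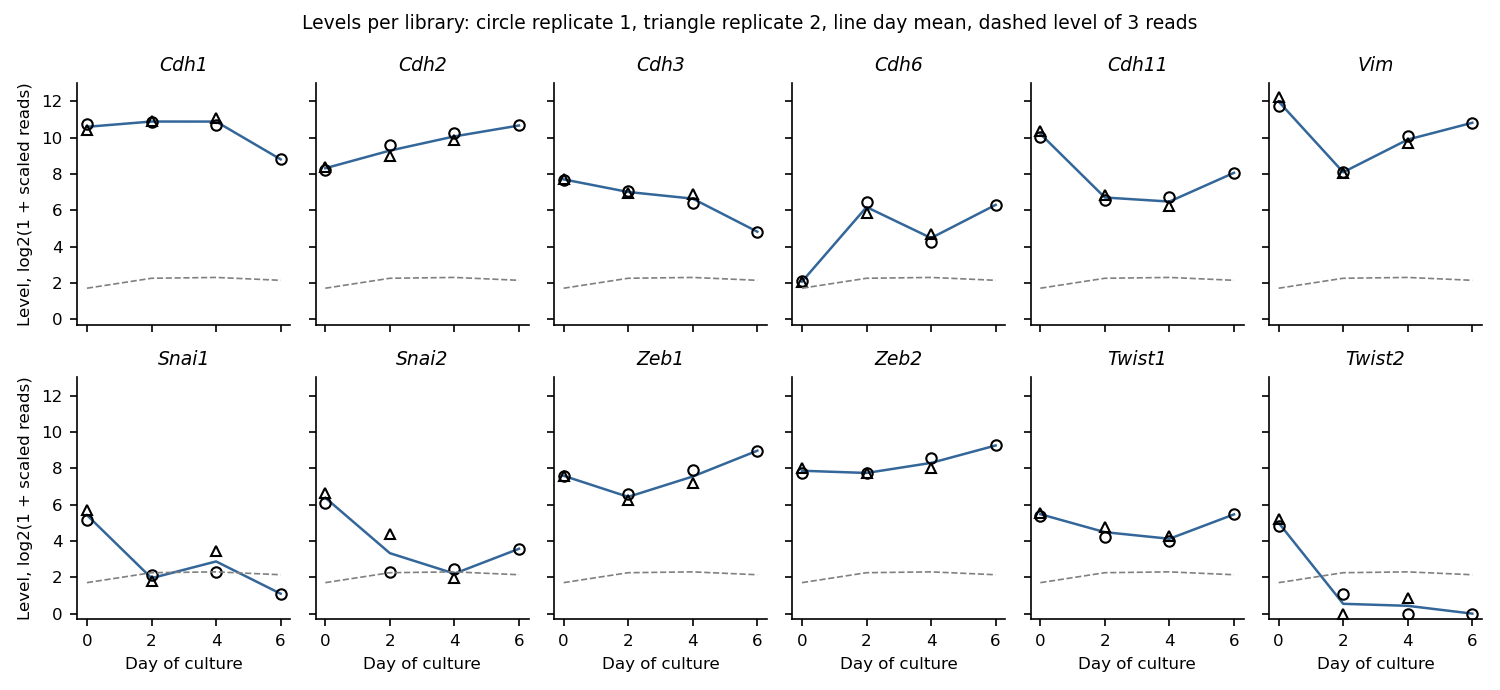
Level of each gene (log2 of 1 plus scaled reads) by day of culture in the 7 libraries, with a line through the day means and a dashed line at the level of 3 reads (the higher of the libraries of a day). Cdh1 stays between 10.44 and 11.09 until day 4 and is at 8.80 on day 6, while Snai1 lies near the dashed line from day 2 on except for 1 day 4 library.

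Cdh1, E-cadherin (chromosome 8, 106603351 to 106670246, plus strand), was at 10.74 and 10.44 in the day 0 libraries, 10.84 and 10.92 by day 2, 10.67 and 11.09 by day 4 and 8.80 by day 6. Both day 2 libraries lay above both of day 0, the day 4 libraries overlapped each of these days, and the day 6 library lay below all of them. No change of Cdh1 was detected over the first 4 days (day 2 against day 0, log2 0.29, SE 0.17, adjusted p = 0.353; day 4 against day 2, log2 -0.0023, SE 0.17, adjusted p = 1), which include the treatment given to induce primitive streak. It then fell 4.22-fold from day 4 to day 6 (log2 -2.08, SE 0.21, adjusted p = 0.0144). The direction was the same without any of the 6 replicated libraries, with log2 changes from -2.29 to -1.87, but the call was lost without each of them in turn (adjusted p = 0.051 to 0.168). The fall from day 2 to day 6 (4.23-fold) kept its call without day 2 replicate 2 or day 4 replicate 2 (adjusted p = 0.0386 and 0.0436) and lost it without the other 4 libraries (0.0516 to 0.0626). Without the mean-variance trend of the fit the call from day 4 to day 6 was lost (adjusted p = 0.0768).

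Cdh2, N-cadherin (chromosome 18, 16588877 to 16809246, minus strand), was at 8.22 and 8.39 in the day 0 libraries, 9.58 and 8.98 by day 2, 10.24 and 9.88 by day 4 and 10.66 by day 6. The libraries of successive days did not overlap, and each day lay above the one before. The rise from day 0 to day 2 was 1.96-fold (log2 0.97, SE 0.23, adjusted p = 0.04), and that from day 2 to day 6 was 2.60-fold (log2 1.38, SE 0.28, adjusted p = 0.0224). The single steps from day 2 to day 4 (log2 0.78, SE 0.23, adjusted p = 0.114) and from day 4 to day 6 (log2 0.60, SE 0.28, adjusted p = 0.242) did not pass, though the first did with genes under a mean of 10 scaled reads left out (adjusted p = 0.0471). Both calls were lost without any 1 of the 6 replicated libraries (adjusted p = 0.0697 to 0.337 and 0.0527 to 0.18), with log2 changes of 0.67 to 1.28 and 1.08 to 1.69. They were also lost without the mean-variance trend (0.138 and 0.0847) and with ordinary moderation (0.0889 and 0.0536), and the first with only the days compared (0.0606).

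The difference between the 2 genes inside a library (Cdh2 level minus Cdh1 level, log2) was -2.52 and -2.04 in the day 0 libraries, -1.26 and -1.94 by day 2, -0.42 and -1.21 by day 4 and 1.86 by day 6. It changed by 0.68 to day 2, by 0.78 to day 4 and by 2.68 to day 6, with a pooled SD between replicates of 0.47. To set both genes side by side, levels were divided by the union length of their annotated exons. The transcripts expressed were not known, so ratios between genes are approximate. Per kilobase of exon, Cdh1 was at 374 and 303 scaled reads on day 0, 401 and 422 by day 2, 356 and 475 by day 4 and 97.1 by day 6. On the same scale Cdh2 was at 37.0 and 41.5, then 95.0 and 62.3, then 150 and 117, and 201 on day 6. Cdh1 was thus the more abundant message per length in all 6 libraries up to day 4, by 10.1- and 7.29-fold in the day 0 libraries, 4.22- and 6.78-fold by day 2 and 2.37- and 4.07-fold by day 4. In the day 6 library Cdh2 stood 2.07-fold above Cdh1. In the last step the log2 change was -2.08 for Cdh1 and 0.60 for Cdh2.

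**Figure D2:**
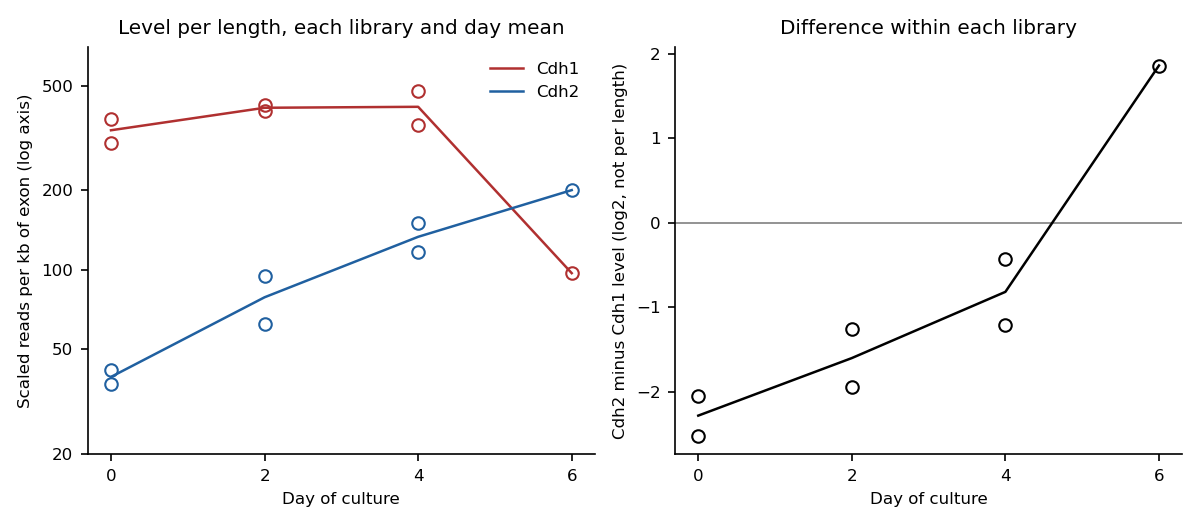
Left, scaled reads per kilobase of exon (log axis) of Cdh1 and Cdh2 by day, each circle a library and each line the day means. Right, Cdh2 level minus Cdh1 level (log2, not per length) in each library: below 0 in the 6 libraries of days 0 to 4 and 1.86 on day 6.

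Cdh3, P-cadherin, an epithelial cadherin that neighbours Cdh1 (chromosome 8, 106510891 to 106557297, plus strand), was at 7.68 and 7.71 in the day 0 libraries, 7.06 and 6.94 by day 2, 6.39 and 6.88 by day 4 and 4.82 by day 6. Each day lay below the one before without overlap. The fall passed from day 4 to day 6 (3.53-fold, log2 -1.82, SE 0.27, adjusted p = 0.0261) and from day 2 to day 6 (4.55-fold, adjusted p = 0.00591), while the first steps did not (log2 -0.69, adjusted p = 0.0953, and log2 -0.37, adjusted p = 0.422). The call from day 4 to day 6 was lost without any 1 of the 6 replicated libraries (adjusted p = 0.0649 to 0.168) and without the mean-variance trend (0.0768). That from day 2 to day 6 was kept without day 2 replicate 2 or day 4 replicate 2 (adjusted p = 0.0394 and 0.0428) and lost without the other 4 (0.0516 to 0.0734).

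Cdh6, K-cadherin, a cadherin known from kidney, neural plate and neural crest (chromosome 15, 13028701 to 13173675, minus strand), was near the limit of detection on day 0, at 2.10 and 2.04, the levels of 5 and 4 reads. It was at 6.48 and 5.87 by day 2, 4.26 and 4.68 by day 4 and 6.29 by day 6. The day 6 value lay between those of the day 2 libraries, and the day 4 libraries lay between day 0 and the rest. The rise to day 2 was 17.2-fold (log2 4.10, SE 0.36, adjusted p = 0.0019). It kept its call without day 2 replicate 1 or 2 or day 4 replicate 2 (adjusted p = 0.0458, 0.0366 and 0.0427) and lost it without day 0 replicate 1 or 2 or day 4 replicate 1 (0.0684, 0.0778 and 0.0563). The differences of -1.70 to day 4 (adjusted p = 0.0574) and 1.82 to day 6 (adjusted p = 0.0664) did not pass. With genes under a mean of 10 scaled reads left out both passed (adjusted p = 0.0256 and 0.0325).

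Cdh11, OB-cadherin, a cadherin of mesenchyme and fibroblasts (chromosome 8, 102632095 to 102785642, minus strand), was at 10.05 and 10.36 in the day 0 libraries, 6.54 and 6.86 by day 2, 6.73 and 6.22 by day 4 and 8.06 by day 6. Days 2 and 4 overlapped, day 0 was highest and day 6 stood between. The fall to day 2 was 11.4-fold (log2 -3.51, SE 0.23, adjusted p = 0.000834), beside a median of -3.61 for the feeder markers. It kept its call without day 2 replicate 1 or 2 or day 4 replicate 2 (adjusted p = 0.0458, 0.0366 and 0.0364) and lost it without day 0 replicate 1 or 2 or day 4 replicate 1 (0.0617, 0.0773 and 0.0563). The rise from day 4 to day 6 was 2.99-fold (log2 1.58, SE 0.28, adjusted p = 0.0397) and that from day 2 to day 6 was 2.56-fold (adjusted p = 0.0247). From day 4 to day 6 none of the 15 feeder markers passed in limma, and their median log2 change was 0.08. Of these, 8 had a higher value, among them Lum (log2 3.40, adjusted p = 0.0965), Lox (1.92, adjusted p = 0.053) and Dcn (1.42, adjusted p = 0.131). The other 7 had a lower value, among them Loxl1 (log2 -1.80, adjusted p = 0.0682), Col6a2 (-1.59, adjusted p = 0.0851) and Thy1 (-1.32, adjusted p = 0.201). The part of feeder cells in the Cdh11 rise was not tested. Between day 2 and day 6, 7 of the 15 fell and 5 had a higher value. Both rises were lost without any 1 of the 6 replicated libraries (adjusted p = 0.0794 to 0.177 and 0.0654 to 0.152), and that from day 4 with the replicate number as a block (adjusted p = 0.0619). Both were lost without the mean-variance trend (0.11 and 0.0803) and with ordinary moderation (0.0648 and 0.0503).

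Of the summed level per kilobase of 22 cadherins (the 5 members and 17 others), Cdh1 held 62.8% and 53.9% in the day 0 libraries, 68.2% and 74.4% by day 2, 60.2% and 70.9% by day 4 and 24.0% by day 6. Cdh2 held 6.21% and 7.40% on day 0 and 49.6% on day 6, and Cdh11 held 19.9% and 26.3% on day 0, between 1.23% and 2.27% on days 2 and 4 and 7.37% on day 6. Among the other 17 cadherins, 4 rose from day 0 to day 2 (Cdh22, Cdh20, Cdh7 and Cdh4) and 0 fell, with a list median of 0.63 against 0.05 over all genes. Cdh4, R-cadherin, a neural and retinal cadherin, rose by a log2 of 2.14 from 3.56 and 2.87 to 5.55 and 5.16 (adjusted p = 0.0144). Cdh20 was at 1.69 and 0 in the day 0 libraries, then 4.42 and 4.23 (adjusted p = 0.0155), and Cdh22 at 0.40 and 0 and then 4.59 and 3.53 (adjusted p = 0.00742). The day 0 values of Cdh20 are 4 reads and a listed 0, and those of Cdh22 are 1 read and a listed 0. Cdh4 was named after its values were seen. Of the 17, 0 passed from day 2 to day 4 or from day 4 to day 6 (limma; the lowest adjusted p = 0.0638 for Cdh13 and 0.055 for Cdh18). From day 2 to day 6 Cdh13 rose (log2 1.97, adjusted p = 0.0467) and Cdh9 fell, from 2.73 and 4.85 to a value listed at 0 (adjusted p = 0.0362).

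**Figure D3:**
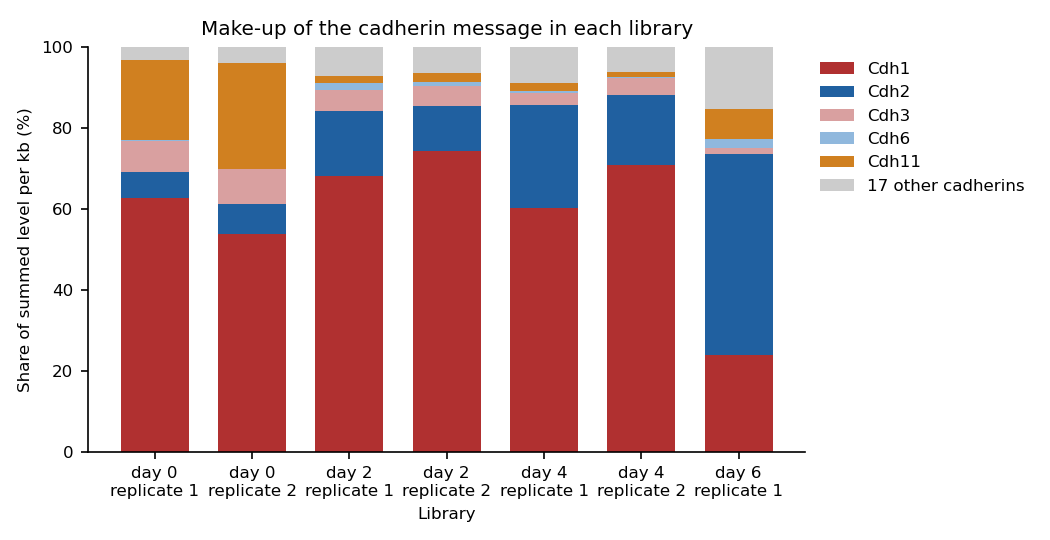
Share (%) of the summed scaled reads per kilobase that each cadherin takes in each of the 7 libraries, as stacked bars of Cdh1, Cdh2, Cdh3, Cdh6, Cdh11 and 17 other cadherins. Cdh1 takes 53.9% to 74.4% in the 6 libraries of days 0 to 4 and 24.0% on day 6, when Cdh2 takes 49.6%.

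Vim, vimentin (chromosome 2, 13573927 to 13582826, plus strand), was at 11.73 and 12.23 in the day 0 libraries, 8.11 and 8.07 by day 2, 10.07 and 9.71 by day 4 and 10.81 by day 6. No days overlapped, with day 0 highest and day 2 lowest. It fell 14.8-fold to day 2 (log2 -3.89, SE 0.19, adjusted p = 0.000496) together with the feeder markers, whose part in the fall was not tested. It then rose 3.47-fold to day 4 (log2 1.80, SE 0.19, adjusted p = 0.0114), a step in which 7 of 15 feeder markers fell and 0 rose. The rise from day 2 to day 6 was 6.60-fold (log2 2.72, SE 0.24, adjusted p = 0.00261). The day 2 fall lost its call without day 0 replicate 2 or day 4 replicate 1 (adjusted p = 0.0551 and 0.0563), the day 4 rise without any 1 of the 6 replicated libraries (0.103 to 0.197), the mean-variance trend (0.0676) or robust moderation (0.0505), and the rise to day 6 without day 2 replicate 1 (0.0506) or day 4 replicate 1 (0.0538). The difference from day 4 to day 6 (log2 0.93, adjusted p = 0.0772) passed only with genes under a mean of 10 scaled reads left out (0.0266). The log2 changes of the 3 calls stayed between -4.14 and -3.64, between 1.62 and 1.98 and between 2.70 and 2.74.

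Snai1, Snail (chromosome 2, 167538195 to 167542814, plus strand), was at 5.15 and 5.70 in the day 0 libraries, 2.12 and 1.79 by day 2, 2.30 and 3.45 by day 4 and 1.10 by day 6. The day 2 values are the levels of 3 and 2 reads, the lower day 4 value that of 3 reads and the day 6 value that of 1 read, so after day 0 the gene was at the limit of detection in all but 1 library. The fall to day 2 passed (log2 -3.47 on the scale of 1 plus scaled reads, SE 0.54, adjusted p = 0.0112) and lost its call without each replicated library other than day 4 replicate 2 (adjusted p = 0.057 to 0.164). Neither later step passed (day 4 against day 2, log2 0.92, adjusted p = 0.409; day 6 against day 4, log2 -1.78, adjusted p = 0.157). No rise of Snai1 was detected from day 2 to day 4, the step with Noggin, Wnt3a and Activin A. Both day 4 values (2.30 and 3.45) did lie above those of day 2 (2.12 and 1.79). A link between Snai1 and the Cdh1 fall was not tested.

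Snai2, Slug (chromosome 16, 14705852 to 14709385, plus strand), was at 6.12 and 6.64 in the day 0 libraries, 2.27 and 4.38 by day 2, 2.46 and 1.94 by day 4 and 3.57 by day 6. The values of day 2 replicate 1 and of both day 4 libraries are the levels of 3 reads, at the limit of detection. The libraries of days 2, 4 and 6 overlapped or lay within the spread of day 2, and all lay below day 0. It fell 8.29-fold to day 2 (log2 -3.05, SE 0.70, adjusted p = 0.0386), by 1.99 without day 2 replicate 1 and by 4.11 without day 2 replicate 2. That call was kept only without day 2 replicate 2 (adjusted p = 0.0488) and lost without the other 5 (0.096 to 0.376), without the mean-variance trend (0.104), with ordinary moderation (0.09) and with only the days compared (0.0612). The later differences of -1.13 (adjusted p = 0.439) and 1.37 (adjusted p = 0.392) did not pass.

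Twist1, a helix-loop-helix factor of mesoderm and neural crest, was at 5.39 and 5.56 in the day 0 libraries, 4.20 and 4.77 by day 2, 3.98 and 4.26 by day 4 and 5.46 by day 6, and passed in none of the comparisons (lowest adjusted p = 0.101, day 6 against day 4). Twist2, its paralog of dermal and other fibroblasts, was at 4.80 and 5.19 in the day 0 libraries, then at 1 read (1.08) and 0 by day 2, 0 and 1 read (0.86) by day 4 and 0 by day 6. It passed on day 2 (adjusted p = 0.00788) and lost its call without any 1 of the 6 replicated libraries (0.0549 to 0.157). Some exons of Twist2 overlap a gene on the other strand, and so do some of Zeb1 and Zeb2, and the sources used here do not say whether the counting used strand.

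Zeb1 (chromosome 18, 5591860 to 5775467, plus strand) was at 7.57 and 7.60 in the day 0 libraries, 6.58 and 6.27 by day 2, 7.90 and 7.19 by day 4 and 8.97 by day 6. Day 2 was lowest, the day 0 libraries lay between those of day 4, and day 6 was highest. It fell 2.23-fold to day 2 (log2 -1.16, SE 0.26, adjusted p = 0.0351) beside the feeder markers, a call lost without any 1 of the 6 replicated libraries (0.0597 to 0.323), without the mean-variance trend (0.109) and with ordinary moderation (0.0739). From day 2 to day 6 it rose 5.82-fold (log2 2.54, SE 0.32, adjusted p = 0.00618), to a level above day 0. That call was kept without day 2 replicate 2 or day 4 replicate 2 (adjusted p = 0.047 and 0.0428) and lost without the other 4 libraries (0.0516 to 0.0973). The single steps of 1.12 to day 4 (adjusted p = 0.0707) and 1.42 to day 6 (adjusted p = 0.0577) did not pass over all genes and did with genes of a mean under 10 scaled reads left out (adjusted p = 0.0234 and 0.0178).

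Zeb2 (chromosome 2, 44983632 to 45117395, minus strand) was at 7.73 and 8.0 in the day 0 libraries, 7.77 and 7.72 by day 2, 8.56 and 8.03 by day 4 and 9.25 by day 6. Days 0 and 2 overlapped (log2 -0.12, SE 0.21, adjusted p = 0.764), so that of the 4 repressors this was the only one without a fall that passed on day 2. It rose 2.85-fold from day 2 to day 6 (log2 1.51, SE 0.25, adjusted p = 0.013), a call kept without day 4 replicate 2 (adjusted p = 0.0479) and lost without the other 5 libraries (0.0557 to 0.113) and without the mean-variance trend (0.0542). The step from day 4 to day 6 (log2 0.96, adjusted p = 0.0803) passed only with genes under a mean of 10 scaled reads left out (0.0314). The difference between the Zeb and the Snail genes in their change from day 2 to day 6 was not tested. Per kilobase of exon, Zeb1 was at 48.7 and Zeb2 at 30.6 scaled reads in the day 6 library, against 5.38 for Snai2 and 0.70 for Snai1. On day 0 the means on that scale were 41.3 ± 10.6 for Snai2, 26.3 ± 7.15 for Snai1, 18.6 ± 0.23 for Zeb1 and 11.7 ± 1.53 for Zeb2.

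**Figure D4:**
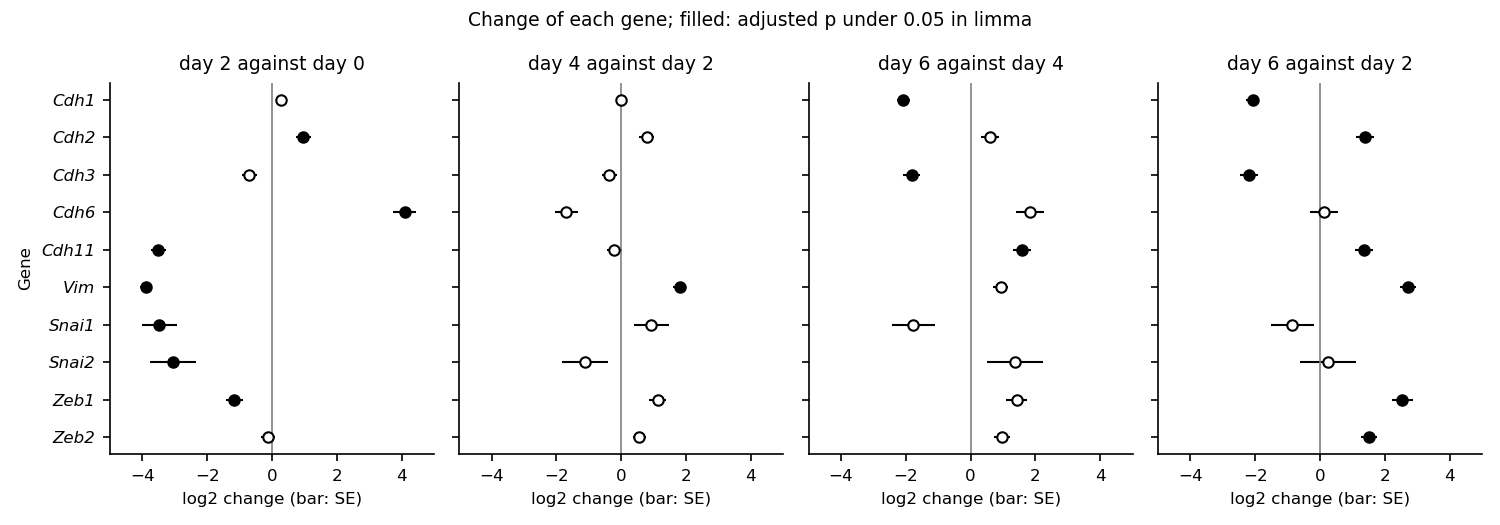
Log2 change of each of the 10 genes in 4 comparisons, with bars for the SE and filled points where limma's adjusted p is under 0.05. On day 2 the filled points lie at -3.89 (Vim) to 4.10 (Cdh6), and between day 2 and day 6 Cdh1 and Cdh3 lie near -2 while Vim and Zeb1 lie above 2.

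**Figure D5:**
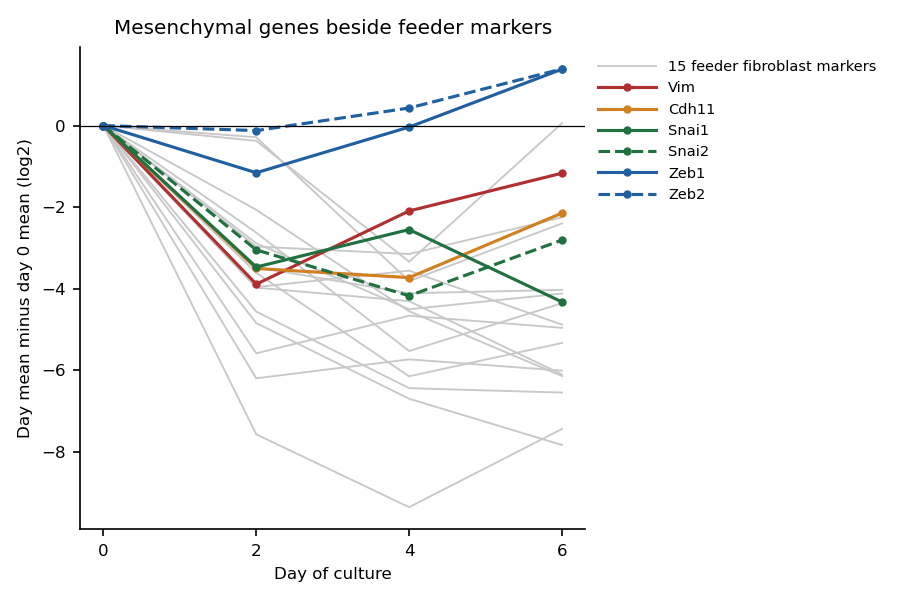
Day mean minus day 0 mean (log2) of 15 feeder fibroblast markers (grey lines) and of 6 members of the set by day of culture. Vim, Cdh11, Snai1 and Snai2 go down among the grey lines on day 2, after which Vim goes back up without reaching 0, while Zeb1 and Zeb2 end above 0.

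The genes that act with these members were read as lists. Over all genes, 12.0% were called from day 0 to day 2 and 3.59% from day 2 to day 4. The shares were 4.46% from day 4 to day 6 and 15.9% between day 2 and day 6. Of 7 catenins, the proteins that tie cadherins to actin, Ctnnd2 rose (log2 1.96) and Ctnnd1, p120 catenin, fell (log2 -0.54) from day 0 to day 2. Jup, plakoglobin, a catenin of junctions and desmosomes, was at 8.30 and 8.37 in the day 0 libraries, 7.86 and 7.05 by day 2, 7.15 and 7.36 by day 4 and 4.01 by day 6, below all other libraries. It fell 9.53-fold from day 4 to day 6 (adjusted p = 0.0154), in the same step as Cdh1 and Cdh3. Ctnna2, the neural alpha-catenin, went from 4.21 and 4.53 (day 2) to 7.53 (day 6) (log2 3.16, adjusted p = 0.0136). Of the 7, 0 passed from day 2 to day 4 (limma; lowest adjusted p = 0.0993, for Ctnna2).

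Of 18 epithelial junction genes 0 rose and 3 fell from day 4 to day 6, with a median of -1.10 against 0.00 over all genes. Among them were Cldn7, a claudin of tight junctions (log2 -2.39, adjusted p = 0.043), and Epcam, an epithelial cell adhesion protein (log2 -1.48, adjusted p = 0.0483). In the step before, 4 rose and 0 fell with a median of 0.78, led by the keratins Krt18 (log2 2.97), Krt8 (2.88) and Krt19 (2.78). From day 0 to day 2, 0 of the 18 rose and 1 fell (Krt19), and between day 2 and day 6, 2 rose and 3 fell. Esrp1, a splicing factor of epithelial cells, was at 8.20 and 7.84 in the day 0 libraries, 9.33 and 9.06 by day 2, 8.67 and 8.95 by day 4 and 7.11 by day 6, and fell 3.25-fold in the last step (adjusted p = 0.0227). Grhl2, an activator of Cdh1 in epithelia, fell 2.55-fold to day 4 (adjusted p = 0.0391) and 3.39-fold more to day 6 (adjusted p = 0.0334), from 7.84 and 7.66 on day 2 to 4.64. A link between the changes of Grhl2 and Cdh1 was not tested.

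Among the 16 other EMT regulators, which include Twist1, Twist2, Esrp1 and Grhl2, 1 rose and 4 fell on day 2, the falls led by Twist2, Foxc2 and Prrx1, a homeobox gene of mesenchyme. Prrx1 was at 9.71 and 9.90 in the day 0 libraries, 5.47 and 6.12 by day 2, 4.12 and 3.03 by day 4 and 6.15 by day 6, and it fell in the first and second steps (adjusted p = 0.00273 and 0.0396) and rose in the last (log2 2.57, adjusted p = 0.0443), the step in which Cdh11 rose. Sox9, a factor of neural crest, cartilage and neural progenitors, rose 5.03-fold on day 4 (adjusted p = 0.0281). Of the 16, 2 rose and 2 fell from day 2 to day 4, 1 rose and 2 fell from day 4 to day 6, and 3 rose and 4 fell between day 2 and day 6. The medians of these 16 were -0.40 on day 2, then -0.37 and -0.51 in the later steps, and -0.76 between day 2 and day 6. Of 15 mesenchymal effector genes 12 fell and 0 rose on day 2, with a median of -2.68, among them Acta2 (log2 -8.01), S100a4 (-6.28) and Tnc (-5.29), beside the feeder markers. Of the 15, 0 rose and 2 fell from day 2 to day 4 (Tnc and Tgfbr2), 0 passed from day 4 to day 6 (limma; lowest adjusted p = 0.0554, for Fn1), and 1 rose (Acta2) and 2 fell (Tnc and Fn1) between day 2 and day 6. Fn1, fibronectin, was at 13.87 and 14.08 in the day 0 libraries, 11.61 and 10.97 by day 2, 10.91 and 10.55 by day 4 and 9.47 by day 6. Fn1 fell between day 2 and day 6 (log2 -1.82, adjusted p = 0.0101), where Vim rose.

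Over all genes, 12.0%, 3.59% and 4.46% were called in the successive steps and 15.9% between day 2 and day 6. Markers of the cell types in which a cadherin switch is known moved as follows. Neural markers summed to 1029.5 and 1051.2 scaled reads on day 0 and to 1148 and 838 by day 2. They summed to 3661 and 2319 by day 4 and 4432 by day 6. The highest of them on day 0 were Nes, Ncam1 and Tubb3 (means 8.93, 8.42 and 7.36), which weigh most in that sum. Of the 12, 5 rose from day 0 to day 2, led by Sox1 (log2 4.67), Pax3 (4.22) and Olig3 (4.15). In that step 1 fell (Ncam1, log2 -2.25), and the list median was 1.41 against 0.05 over all genes. From day 2 to day 4, 6 rose and 0 fell, with a median of 1.47. Between day 2 and day 6, 8 rose and 0 fell, led by Dcx, Dbx1 and Neurog2. The 12 tested markers of primitive streak and mesoderm summed to 498.6 and 479.5 on day 0, above both day 2 libraries (162 and 372). Pdgfra had the highest mean level of the list on day 0, at 8.26 ± 0.46, and was at 6.23 ± 0.50 on day 2. It was the only 1 of the 12 called in this step, as a fall (log2 -2.03, limma adjusted p = 0.0154). The 12 summed to 906 and 766 on day 4 and 490 on day 6. Between day 2 and day 6 Lhx1 rose while Mixl1 and Eomes fell. Mesp1, a defining gene of early mesoderm, was at 1 read in day 4 replicate 2 and listed at 0 in the other libraries. T, Brachyury, was at 4.49 ± 1.85 on day 2, 8.84 ± 0.25 on day 4 and 7.95 on day 6. Its differences from day 2 to day 4 (log2 4.35, limma adjusted p = 0.0638) and from day 2 to day 6 (log2 3.46, adjusted p = 0.0954) did not pass. Mesp1 and T were named apart from the rule given below. Endoderm markers summed to 69.2 and 104.1 on day 0, to 87.1 and 124 on day 2, to 591 and 543 on day 4 and to 635 on day 6. Of the 7, 2 rose from day 2 to day 4 (Cer1 and Foxa2), 0 passed from day 4 to day 6 (limma; lowest adjusted p = 0.0664, for Cer1) and 3 rose between day 2 and day 6. Of 8 neural crest markers, 2 rose (Tfap2b and Pax7) and 1 fell (Ets1) from day 0 to day 2, and between day 2 and day 6 0 rose and 1 fell (Foxd3, listed at 0 on day 6). Their medians in these comparisons were 0.57 and 0.0005, against 0.05 and 0.00 over all genes. Stem cell and epiblast markers went from 4182 and 4588 on day 4 to 2086 on day 6, with Pou5f1 down 11.5-fold in the step in which Cdh1 fell. Of the 8, 4 fell and 0 rose in this step, with a median of -1.77 against 0.00 over all genes. Sox2 (log2 0.90, limma adjusted p = 0.0549) and Klf4 (0.28, adjusted p = 0.59) had higher values that did not pass. On day 6 Sox2, at 10.32, was the highest of the 8 and weighs most in the sum. How much of each member's change lay in any of these cell types was not tested.

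The genes most like a member over the 7 libraries were taken by Pearson correlation of levels among 5092 variable genes with a mean of at least 10 scaled reads, as a description in which libraries of a day share their day. Cdh1 was closest to Mospd3 (r = 0.995), Sfswap and Tmem39b (both 0.990), all lowest on day 6, where Sfswap was listed at 0. Cdh2 was closest to Itgb8, an integrin chain (0.996), Nxpe4 (0.994) and Camk2n1 (0.993). Vim was closest to Parva, an actin-binding protein of adhesion sites (0.997), Pappa and Ifnar2 (both 0.991). Snai1 was closest to Col4a2 and Col4a1, the basement membrane collagens (0.997 and 0.990), and Tes (0.995). Snai2 was closest to Il13ra1 (0.989), Ltbp3 (0.981) and Tll1 (0.980). The correlations of Snai1 and Snai2 are limited by low counts. Snai1 lay at 1 to 3 reads after day 0 except in day 4 replicate 2. Snai2 lay at 3 reads in day 2 replicate 1 and both day 4 libraries.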

How the data were processed

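Polyadenylated RNA of 7 libraries was prepared with a strand-marking kit according to the labels' protocols. The authors deposited 1 table of 30590 rows and 7 columns, each mapped to a library by name, with 1 name that has a letter O for a zero. Its deposited values were read as the natural log of 1 plus scaled reads. That unit was inferred from the values: exponentiated, the lowest values form even steps, and the value at 8 reads over that at 4, divided by 2, was 0.947 to 1.04. Sorted, the columns match within 0.01 down to rank 9896, as quantile normalized values do. The submitters' processing notes name GRCm38. The aligner and counter were not given in the sources used here. Gapdh is listed at 0 on day 6, so a 0 here can be a failed estimate.

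Values were divided by the natural log of 2. Left out were 103 rows of foreign sequence and 8674 genes at 0 in every library, and 21813 genes were tested with limma 3.58.1 in R 4.3.3 (mean-variance trend, robust moderation, 1 mean per day, 3 residual degrees of freedom). P-values were Benjamini-Hochberg adjusted over all of them, with a threshold of 0.05. Fold changes are of 1 plus scaled reads and understate the change of low genes. Exon lengths are unions of GENCODE exons on GRCm38. The members, lists and comparisons were chosen with earlier results of these data known. The rule named all members, Twist1 and Twist2, up to 3 called genes per list and comparison by size of change (or the gene of lowest adjusted p where none was called), and the 3 genes most like each of 5 members. Alternatives were a mean-level filter of 10 scaled reads, centring, a pseudocount of 10, other moderation, a replicate block, only the days compared, and leaving out each replicated library. The fit was tested on simulated levels.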

Additional observations from a re-analysis of the deposited data

How the results depend on the processing

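The called genes numbered 2609 (day 2 against day 0), 782 (day 4 against day 2), 972 (day 6 against day 4), 3464 (day 6 against day 2) and 6232 (any day). Without the mean-variance trend they were 1419, 168, 27, 1995 and 3728. Ordinary moderation gave 172 for day 4 against day 2, and the mean-level filter 1422 there and 2200 for day 6 against day 4. Only the days compared gave 0 genes for both day 6 comparisons by limma (3732 and 5031 at an unadjusted p under 0.05), where a single day 6 library adds no spread. Leaving out 1 library gave 0 to 691, 0 to 0, 0 to 295, 0 to 1892 and 0 to 4181 genes by limma (3511 to 5139 at an unadjusted p under 0.05 for day 4 against day 2). Calls from day 4 to day 6 were 278 higher and 694 lower, and 450 and 509 with a pseudocount of 10. Same-numbered libraries deviated together between days 2 and 4 (correlation 0.222) and not between day 0 and either (-0.058 and -0.066), and the labels tie a number to no litter, batch or day, so a shared batch of days 2 and 4 was not tested. With the replicate number as a block 2243, 568, 606, 2563 and 5093 genes were called, and of the members' calls only Cdh11 from day 4 to day 6 was lost (log2 1.60, adjusted p = 0.0619). For the members, centring changed no call, a pseudocount of 10 added 1, the mean-level filter added 7, ordinary moderation removed 8, the fit without the trend 12, and only the days compared removed 12 and added 2. Of 168 cases in which a library was left out of a called result, 121 lost the call and 47 kept it. Among 132 cases with no call to begin with, 126 kept their direction and 6 reversed: Zeb2 on day 2 against day 0 (-0.26 to 0.0102), Cdh1 (-0.21 to 0.21, and 0.04 without day 2 replicate 2) and Cdh11 (-0.48 to 0.0344) on day 4 against day 2, and Cdh6 (-0.18 to 0.43) and Snai2 (-0.815 to 1.30) on day 6 against day 2. Twist2 on day 4 against day 2 reversed as well (-0.65 to 0.43, and 0.32 without day 4 replicate 1). The change in the cadherin balance ranged from 0.339 to 1.02, 0.392 to 1.17, 2.29 to 3.07 and 3.12 to 3.80, an alternative chosen after seeing the data. The causes were not tested. Depth limits Snai1 after day 0 except in day 4 replicate 2, Twist2 after day 0 and Cdh6 on day 0, which lie at 0 to 5 reads. It also limits Snai2 in day 2 replicate 1 and both day 4 libraries, each at 3 reads.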
